A study of Saccharomyces cerevisiae with 6 samples.

Results

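The large subunit of the yeast cytosolic ribosome is built from proteins encoded by the *RPL* and *RPP* genes. All genes of the count table whose standard name is *RPL* or *RPP* followed by a digit were taken, from *RPL1A* to *RPL43B* together with *RPP0*, *RPP1A*, *RPP1B*, *RPP2A* and *RPP2B*. The rule used names only and gave 81 of the 7032 genes listed, and all 81 passed the filter on low counts. They form 35 A/B paralog pairs (70 genes) and 11 genes with a single copy. New RNA was measured by TT-seq (transient transcriptome sequencing) in *S. cerevisiae*, with 3 cultures that lack *DBP2* (*dbp2Δ*), a gene for a DEAD-box RNA helicase, and 3 wild-type (WT) cultures. The *dbp2Δ* strain is *MATalpha*, has *dbp2::KanR* and *his3Δ0*, and is *TRP1*, *MET* and *LYS*. The WT strain is *MATa* with *his3Δ1* and *met15Δ0*. Both have *ura3Δ0* and *leu2Δ0*. They carried the empty *URA3* vector pRS426 and grew in SD-URA with 2% glucose at 30°C to an OD600 of 0.5, after which new RNA was labelled for 10 min with 0.32 mg/ml 4-thiouracil. The strains thus differ in mating type and nutritional markers as well as in *DBP2*, and these differences cannot be told apart from the deletion. No spike-in was described, so every level below is relative to the other genes of its library.

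The large subunit carries the peptidyl transferase centre, the exit tunnel for the new chain and the stalk that binds translation factors. Its proteins are made in equal amounts from genes that are transcribed together at very high rates, mainly through the factors Rap1, Fhl1, Ifh1 and Sfp1, and that are turned down when cells are stressed or starved. Most ribosomal protein genes of yeast exist as duplicates, many of them near-identical, left by a whole-genome duplication. Ribosomal protein genes also hold a large part of the introns of this genome.

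The 6 libraries held 6968216 to 13134963 gene counts. *DBP2* had 0, 0 and 2 counts in *dbp2Δ*, against 10976, 11136 and 11213 in WT, as labelled. *LYS2*, an enzyme of lysine synthesis, had 4477 to 5894 counts in *dbp2Δ* and 0 to 1 in WT, although the stated WT genotype lists no *lys2* allele. WT replicate 3 stood apart from the other WT libraries (r of log2 CPM, across genes, of 0.956 and 0.967 with WT replicates 1 and 2, against 0.981 between these), and the main results are therefore also given without it. Heat shock genes also set WT replicate 3 apart from the other WT libraries, but there it stayed above every *dbp2Δ* library. The normalized counts of 12 such genes, a list written after the libraries had been seen, summed to 16742, 13580 and 14497 in *dbp2Δ*, against 151371, 237059 and 57145 in WT replicates 1, 2 and 3. Of the 12 genes, 11 were lower in WT replicate 3 than in both other WT libraries. The share of all genes with that order is not given here. In edgeR, 10 of the 12 were called lower in *dbp2Δ*, against 21.9% of all genes tested. The part of this difference in the results on ribosomal protein genes was not tested.

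The large subunit genes took a larger share of new RNA in *dbp2Δ* than in WT replicates 1 and 2, and WT replicate 3 lay with *dbp2Δ*. Their share of all gene counts was 5.09%, 4.96% and 4.59% in *dbp2Δ*, against 2.52%, 2.55% and 4.74% in WT. The means were 4.88% ± 0.26 and 3.27% ± 1.28 (SD, n = 3 each). Without WT replicate 3 the WT mean was 2.53% ± 0.02 (SD, n = 2). The 56 small subunit (*RPS*) genes moved in step, at 3.49%, 3.46% and 3.12% in *dbp2Δ* and 1.72%, 1.67% and 3.27% in WT. Of the counts of both subunits together, the large subunit genes held 59.2% ± 0.31 in *dbp2Δ* and 59.7% ± 0.65 in WT (SD, n = 3 each). The split between the subunits was thus nearly constant while the summed share ranged widely.

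**Figure D1:**
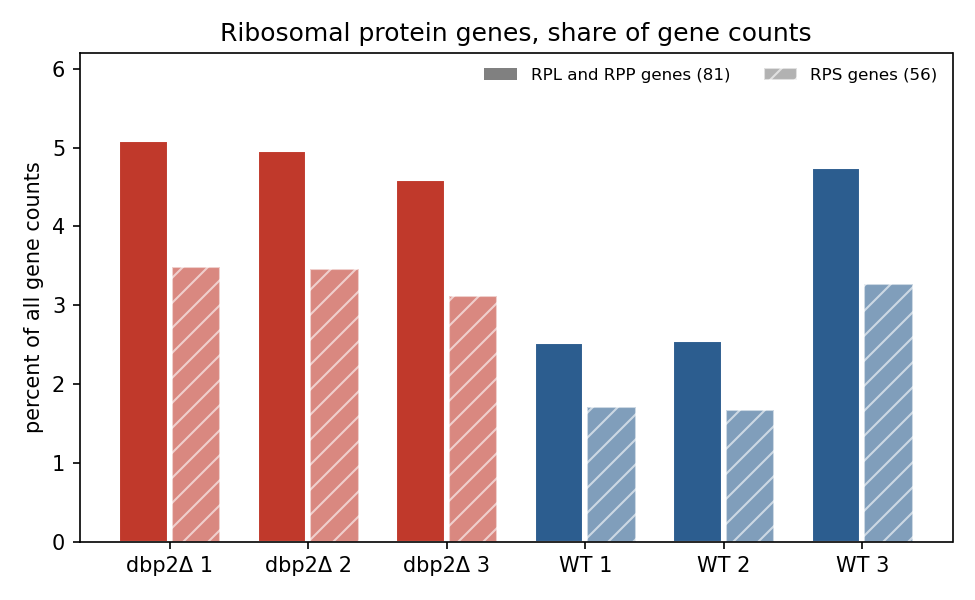
Share of all gene counts (y axis, percent) held by the 81 *RPL* and *RPP* genes (solid bars) and the 56 *RPS* genes (hatched bars) in each library (x axis). The large subunit share is 4.59% to 5.09% in *dbp2Δ* and 2.52% to 4.74% in WT, with WT replicate 3 inside the *dbp2Δ* range.

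Gene by gene, most members leaned upwards in *dbp2Δ*, but few passed the test while WT replicate 3 was kept. In edgeR's quasi-likelihood test, with p adjusted over the 5936 genes tested and called under 0.05, 14 members were higher and 0 were lower. That is 17.3% of the members, close to the 20.0% of all genes tested that were called higher, so the count alone does not set the members apart. For lower calls the background was 21.9%. At an unadjusted p under 0.05, 27 members were higher and 1 was lower, against 1483 and 1586 of the 5936 genes tested. DESeq2 called 24 higher (background 21.1%) and 0 lower (22.5%). Limma-voom with sample quality weights called 69 higher and 0 lower (background 27.3% each way). The median log2 fold change was 0.49 over the members and -0.01 over all genes tested, and 78 of 81 members had a positive value. The count turned on single libraries. With WT replicate 3 left out, 76 members were called higher, 93.8% of the list against a background of 25.7%, and 0 lower (26.0%). The median log2 fold change was then 0.86. Without WT replicates 1 and 2 the counts were 9 (background 20.7%) and 4 (14.0%), and without *dbp2Δ* replicates 1, 2 and 3 they were 3, 4 and 5 (11.7%, 11.0% and 11.9%). *RPL16A*, *RPL8B* and *RPL36A* were the 3 members called in all 7 of these fits.

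The spread lay in WT. The coefficient of variation of a member's normalized counts had a median of 8.25% over the *dbp2Δ* libraries and 42.2% over the WT libraries, but 7.61% over WT replicates 1 and 2 alone. All 81 members were higher in WT replicate 3 than in both other WT libraries, by a median log2 ratio of 0.96 over their mean. The same ratio had a median of -0.02 over all genes tested, of which 7.06% reached the members' median. The share of all genes above both other WT libraries is not given here. WT replicate 3 was above every *dbp2Δ* library for 36 members, within their range for 20 and below all of them for 25. For the 36 and the 20, the share of all genes is not given here. These 25 members, for which the strains did not overlap, compare with a background of 27.7% of all genes higher in every *dbp2Δ* library. Against WT replicates 1 and 2 alone, 79 of 81 members were higher in every *dbp2Δ* library (background 34.7%).

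**Figure D2:**
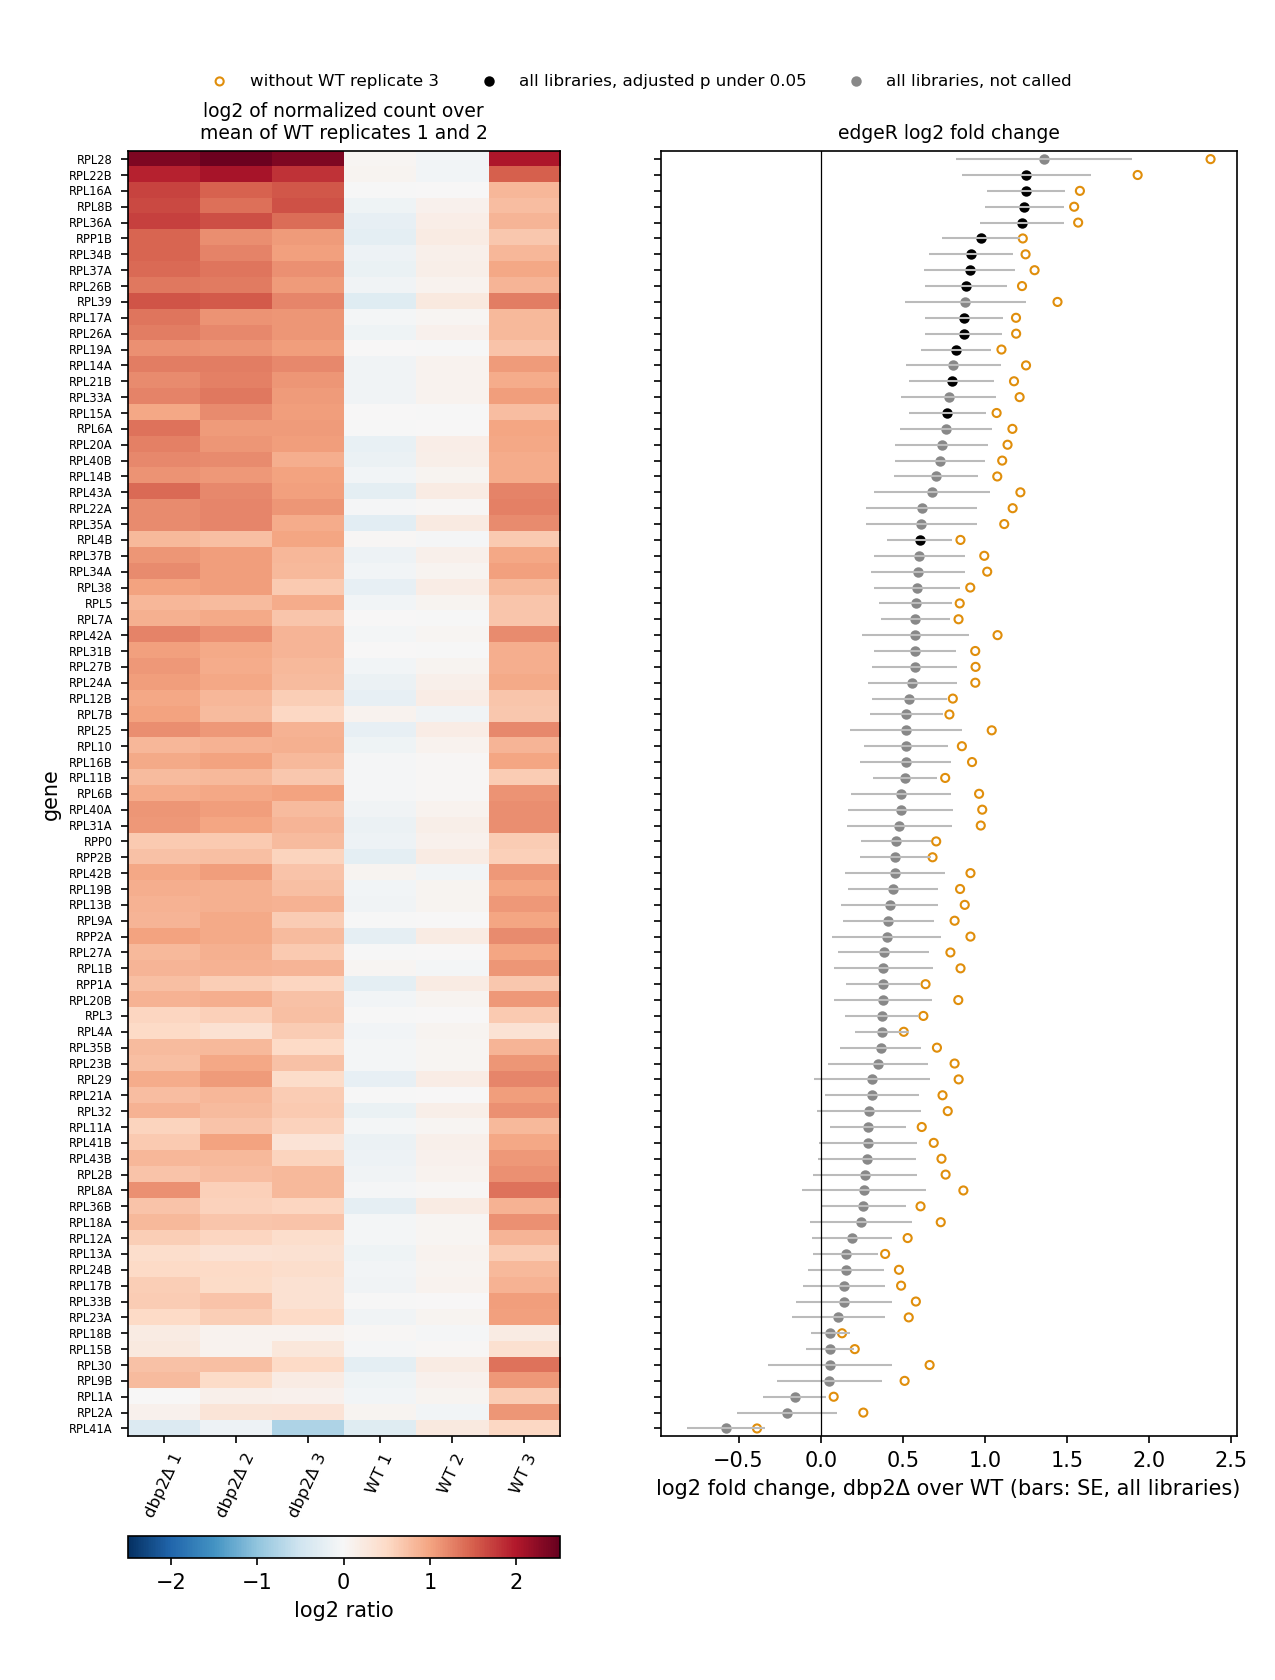
The 81 members, sorted by log2 fold change. Left, log2 of the normalized count of each library over the mean of WT replicates 1 and 2. Right, edgeR log2 fold change (x axis, *dbp2Δ* over WT) with all libraries (filled points, bars are SE, black for adjusted p under 0.05) and without WT replicate 3 (open points). The WT replicate 3 column resembles the *dbp2Δ* columns, and 76 members pass the test without it, against 14 with it.

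*RPL28* had the largest fold change. It encodes the protein whose mutation gives cycloheximide resistance. Its normalized counts (TMM-normalized, at the mean effective library size) were 13823, 15066 and 13924 in *dbp2Δ*, against 2862, 2636 and 11198 in WT. All *dbp2Δ* libraries were above all WT libraries, but WT replicate 3 was near them. The log2 fold change was 1.36 (SE 0.54) and missed the threshold (edgeR adjusted p = 0.076). Without WT replicate 3 it was 2.37 (edgeR adjusted p = 5.6e-06).

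*RPL16A* encodes a protein conserved in all domains of life, *RPL8B* a protein of the L7Ae family and *RPL36A* a protein found in eukaryotes. *RPL16A* had 6170, 5333 and 5623 normalized counts in *dbp2Δ*, against 1898, 1920 and 3377 in WT. The strains did not overlap, and the gene rose 2.38-fold (log2 fold change 1.25, SE 0.24, edgeR adjusted p = 0.0064). *RPL8B* had 8959, 7415 and 8677 in *dbp2Δ* and 2653, 3070 and 4881 in WT. It too showed no overlap between the strains and rose 2.36-fold (log2 fold change 1.24, SE 0.24, edgeR adjusted p = 0.0064). *RPL36A* had lower counts, at 2466, 2303 and 1981 in *dbp2Δ* and 661, 854 and 1365 in WT, and rose 2.34-fold (log2 fold change 1.23, SE 0.26, edgeR adjusted p = 0.0085). The highest adjusted p with any library left out was 0.031 for *RPL16A*, 0.031 for *RPL8B* and 0.038 for *RPL36A*.

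*RPL22B* is the minor copy of a pair whose protein is known to hold back splicing of the *RPL22B* transcript. It had 2013, 2214 and 1854 normalized counts in *dbp2Δ*, against 556, 506 and 1490 in WT. The log2 fold change was 1.25 (SE 0.39, edgeR adjusted p = 0.037), and the adjusted p was 0.099 at its highest with a library left out. *RPL22A*, its partner, had 6016, 6180 and 5729 in *dbp2Δ* and 2603, 2704 and 6389 in WT (log2 fold change 0.62, edgeR adjusted p = 0.18).

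The other called members had smaller changes. *RPL34B* had 4053, 3463 and 2981 normalized counts in *dbp2Δ* and 1338, 1604 and 2617 in WT (log2 fold change 0.92, edgeR adjusted p = 0.025). *RPL37A* had 4097, 3864 and 3401 in *dbp2Δ* and 1371, 1695 and 2987 in WT (log2 fold change 0.91, edgeR adjusted p = 0.034). Both of these are small proteins. In each, WT replicate 3 was the WT library nearest to *dbp2Δ*. The copies of *RPL26*, a protein near the tunnel exit, were called together. *RPL26A* had 4403, 4150 and 3872 in *dbp2Δ*, against 1683, 1941 and 3171 in WT, and *RPL26B* 5416, 5331 and 4557 in *dbp2Δ*, against 2040, 2314 and 3944 in WT (log2 fold changes 0.87 and 0.88, edgeR adjusted p = 0.022 and 0.026). *RPL26* was the only pair with both copies called. *RPL17A*, of another protein at the tunnel exit, had 7061, 6158 and 6023 in *dbp2Δ* and 2724, 2893 and 4906 in WT (log2 fold change 0.87, edgeR adjusted p = 0.022). *RPL15A* had 12768, 14793 and 13501 in *dbp2Δ* and 6513, 6493 and 11046 in WT (log2 fold change 0.77, edgeR adjusted p = 0.032). Its counts were the highest of any called member. *RPL4B*, whose protein reaches into the tunnel, had the smallest called change, with 4617, 4429 and 5160 in *dbp2Δ* and 2658, 2585 and 4118 in WT (log2 fold change 0.60, edgeR adjusted p = 0.045). *RPP1B* is given with the stalk below, and *RPL19A* (0.82) and *RPL21B* (0.80), named because they passed the test, complete the 14. In all 14 called members the strains did not overlap, but these members were picked by a test on the same libraries.

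At the other end of the list, *RPL41A* was the only member with a negative log2 fold change both with and without WT replicate 3. *RPL41A* and *RPL41B* encode the smallest ribosomal protein, a short basic peptide. *RPL41A* had 1372, 1588 and 1018 normalized counts in *dbp2Δ*, against 1408, 2052 and 2476 in WT. The ranges overlapped, and the log2 fold change of -0.58 (SE 0.24) missed the threshold (edgeR adjusted p = 0.086). It passed only without WT replicate 1 (edgeR adjusted p = 0.019). *RPL2A* had 5050, 5798 and 5924 in *dbp2Δ* and 4883, 4442 and 10036 in WT, with a log2 fold change of -0.21 that became 0.26 without WT replicate 3. *RPL1A*, a protein of the L1 stalk over the exit site for tRNA, had 2900, 3148 and 3081 in *dbp2Δ* and 2725, 3027 and 4443 in WT. Its log2 fold change was -0.16. *RPL30*, whose protein is known to bind its own transcript and hold back its splicing, and *RPL9B* were at 0.06 and 0.05. The 5 members that were not called without WT replicate 3 were *RPL1A*, *RPL2A*, *RPL15B*, *RPL18B* and *RPL41A*.

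The 5 stalk genes encode P0, the base that anchors the stalk on the subunit, and the acidic proteins P1 and P2, which recruit translation factors. *RPP1B* stood out among them. It had 3445, 2794 and 2616 normalized counts in *dbp2Δ*, against 1054, 1457 and 1991 in WT, with no overlap (log2 fold change 0.98, SE 0.24, edgeR adjusted p = 0.015). *RPP0* had 17226, 17216 and 18850 in *dbp2Δ* and 10031, 11756 and 17008 in WT. Its strains did not overlap either, but the log2 fold change of 0.46 (SE 0.22) did not pass (edgeR adjusted p = 0.12). *RPP1A*, *RPP2A* and *RPP2B* had log2 fold changes of 0.38, 0.40 and 0.46, overlapped between the strains and did not pass. All 5 stalk genes were called higher when WT replicate 3 was left out (background 25.7%), with log2 fold changes of 0.64 to 1.23.

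Of the 11 single-copy genes, 0 were called with all libraries in edgeR, 3 were higher at an unadjusted p under 0.05, 2 were called higher by DESeq2 and 10 by limma-voom with sample quality weights. The backgrounds were 20.0% (edgeR), 1483 of 5936 genes (unadjusted), 21.1% (DESeq2) and 27.3% (limma-voom). All 11 were called higher without WT replicate 3 (background 25.7%). Their log2 fold changes ran from 0.06 (*RPL30*) to 1.36 (*RPL28*), with a median of 0.52. After *RPL28*, the largest were *RPL39*, a small protein of the exit tunnel wall, and *RPL38*. *RPL39* had 3808, 3698 and 2984 normalized counts in *dbp2Δ*, against 1048, 1521 and 3130 in WT, so that WT replicate 3 lay within the *dbp2Δ* range (log2 fold change 0.88, SE 0.37, edgeR adjusted p = 0.090). *RPL38* had 7110, 7230 and 5556 in *dbp2Δ* and 3044, 3998 and 6203 in WT (log2 fold change 0.59, SE 0.26, edgeR adjusted p = 0.11).

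The levels themselves differed 30.3-fold between the highest and the lowest member, measured as normalized count per kb of coding length over all libraries. Because TT-seq fragments can include intron and untranslated sequence, this scale only approximates a level per length. The members' median was 10979 per kb in *dbp2Δ* and 7927 in WT. Over all libraries it was 9341, against 649 for the 5607 protein-coding genes tested, and 74 of the 81 members were in the top 5% of those genes. The order was much alike in the strains (Spearman rho of 0.89 over the members) but not the same at the top. In *dbp2Δ* the highest were *RPL28* (31714 per kb), *RPL10* (29377), which joins late in the cytoplasm, *RPL38* (27984) and *RPL3* (25564), which reaches towards the peptidyl transferase centre. In WT they were *RPL41A* (25369), *RPL10* (20510), *RPL3* (19729) and *RPL38* (18628). *RPL28* had 12367 in WT, and *RPL41A* had 17000 in *dbp2Δ*. The WT values are means that include WT replicate 3. For *RPL28* they average normalized counts of 2862 and 2636 with 11198 in that library. *RPL15B* (840 in *dbp2Δ* and 806 in WT) and *RPL7B* (2948 and 2053) were the lowest in both strains. *RPL4B* had 4348 per kb in *dbp2Δ* and 2865 in WT, *RPL22B* 5493 and 2305, and *RPL18B* 4882 and 4685. *RPL7B* holds the small nucleolar RNA gene *SNR59* in an intron on the same strand, and whether its counts include that RNA was not tested.

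Members with an intron had a higher median fold change than members without one. The median log2 fold change was 0.57 over the 53 genes with an annotated intron and 0.38 over the 28 without. Called higher were 11 of the 53 (20.8%) and 3 of the 28 (10.7%), against 20.0% of all genes tested. When WT replicate 3 was left out, the medians were 0.98 and 0.77. The *RPS* genes had medians of 0.57 (36 genes with intron) and 0.47 (20 without). Outside the ribosomal protein genes, the medians were -0.13 over 176 protein-coding genes with an intron and -0.02 over 5294 without, of which 11.4% and 20.6% were called higher. Of the 20 members with the largest fold changes, 18 had an intron, while 53 of all 81 did. These are descriptions with no test. The intron groups also differ in length and level, whose part was not tested. *RPP1* is the only pair with an intron in 1 member, and there *RPP1B*, which has it, gained on *RPP1A*, which has none.

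**Figure D3:**
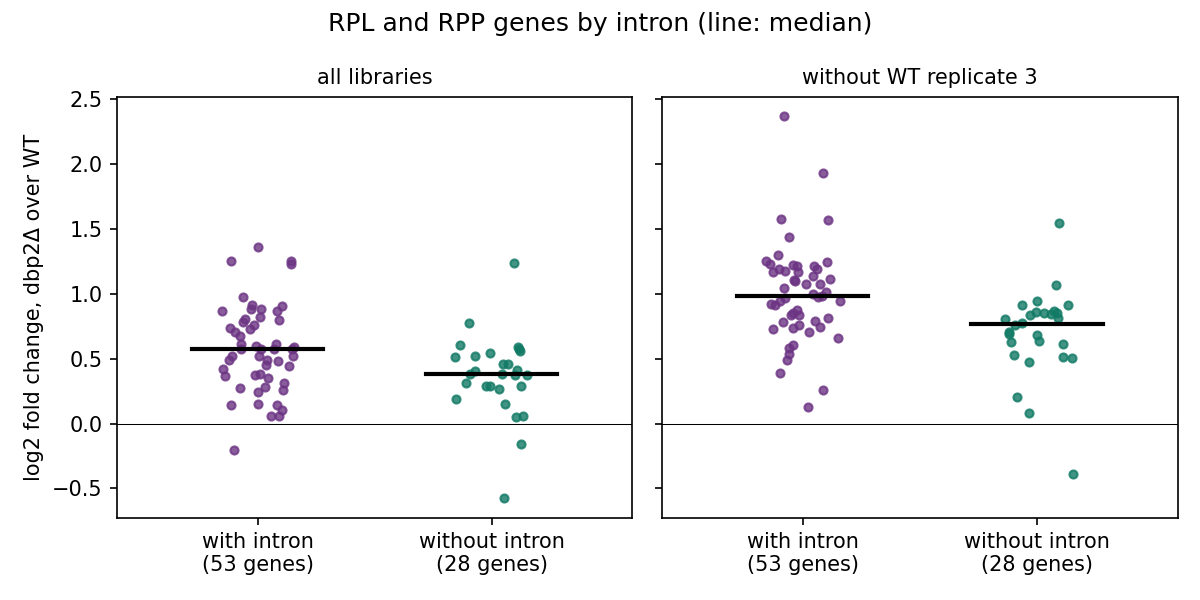
Log2 fold change (y axis, *dbp2Δ* over WT) of each member with (left group, 53 genes) or without (right group, 28 genes) an annotated intron, with all libraries and without WT replicate 3. Lines are medians, 0.57 and 0.38 with all libraries and 0.98 and 0.77 without WT replicate 3.

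The A/B pairs allow a comparison that does not depend on how a library is scaled, since both members are counted in the same library. Whether their reads can be told apart depends on how far the copies have diverged. The coding sequences of the 35 pairs were 69.2% to 99.4% identical (median 93.2%), and 12 pairs encode the same protein. *RPL1A* and *RPL1B* share 650 of 654 coding bases and *RPL41A* and *RPL41B* 77 of 78, so few reads within them can be assigned by the coding sequence. At the other end, *RPP1A* and *RPP1B* share 69.2% and *RPL22A* and *RPL22B* 78.9%. How reads with several hits were counted is not known here, and values of near-identical pairs are uncertain. In 4 pairs with a changed ratio, the first 30 coding bases differ at 1 base (*RPL41*), 2 bases (*RPL1* and *RPL8*) or 3 bases (*RPL17*). Over the whole coding sequence, *RPL8A* and *RPL8B* share 733 of 771 bases and *RPL17A* and *RPL17B* 513 of 555. The copies of *RPL8* and *RPL17* thus differ at more bases than those of *RPL1* and *RPL41*. Capitals mark the bases that differ between the copies (R64 build, genome of RefSeq, coding strand).
*RPL1A*, chrXVI:135790-135819, plus strand: atgtcCaagatcacTtcttctcaagtcaga
*RPL1B*, chrVII:254641-254670, plus strand: atgtcTaagatcacCtcttctcaagtcaga
*RPL41A*, chrIV:130455-130484, minus strand: atgagagcCaagtggagaaagaagagaact
*RPL41B*, chrIV:221772-221801, minus strand: atgagagcTaagtggagaaagaagagaact
*RPL8A*, chrVIII:35996-36025, minus strand: atggcCccaggtaagaaagtCgctccagct
*RPL8B*, chrXII:48600-48629, minus strand: atggcTccaggtaagaaagtTgctccagct
*RPL17A*, chrXI:109269-109298, plus strand: atggcTagatacggtgctacttcCacTaac
*RPL17B*, chrX:90786-90815, plus strand: atggcAagatacggtgctacttcAacCaac

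The balance between A and B copies differed between the strains for 21 of 35 pairs, or for 15 by a wider adjustment given below. WT replicate 3 mostly sat with the other WT libraries. The ratio A/B was tested as the interaction of copy and strain in edgeR, adjusted over the 59 *RPL*, *RPP* and *RPS* pairs. It changed in 21 of 35 large subunit pairs, towards the A copy in 11 and towards the B copy in 10, and in 13 of 24 small subunit pairs (54.2%). Over all 59 pairs the share called was 57.6%. In 26 of 35 pairs the ratios of the strains did not overlap, including 20 of the 21 called (the exception was *RPL9*). For each pair without overlap the exact two-sided permutation p was 0.1, the smallest that 3 against 3 libraries allow. When p was adjusted together with other duplicated genes, the share called was near theirs, while the share without overlap was higher. The plan named an adjustment over paralog pairs of the proteome for the case that protein sequences were given. It was run after seeing the data, with 326 pairs. Of the 35 pairs, 15 were then called (42.9%), against 39.6% of all 326 and 39.3% of the 267 that are not ribosomal. The strains did not overlap in 26 of 35 pairs (74.3%), against 62.5% of the small subunit pairs and 54.7% of these 267. The median absolute change in log2 ratio was 0.33 over the 35 pairs and 0.60 over the 267 others. With each library left out in turn, 15 pairs were called every time, the same 15 that passed over the proteome.

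*RPL36* had the largest change with all libraries (without WT replicate 3, *RPL41* had, at -1.06 against 0.95). *RPL36A* made up 36.0%, 36.6% and 33.8% of the counts of its pair in *dbp2Δ*, against 22.5%, 21.8% and 21.9% in WT. Each strain was tight and they lay far apart. The ratio A/B rose 1.95-fold (log2 change 0.96, SE 0.07, edgeR adjusted p = 3.5e-05). *RPL36A* itself was called and *RPL36B*, at a log2 fold change of 0.26 (edgeR adjusted p = 0.44), was not.

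*RPL17*, *RPL16*, *RPL33* and *RPL15* also shifted towards the A copy. *RPL17A*, whose product lies near the tunnel exit, made up 58.9%, 57.7% and 59.0% in *dbp2Δ*, against 47.3%, 45.8% and 45.5% in WT (log2 change 0.72, SE 0.08, edgeR adjusted p = 0.00027). The more abundant copy was therefore *RPL17A* in *dbp2Δ* and *RPL17B* in WT. *RPL16A* made up 41.9%, 37.5% and 41.8% in *dbp2Δ* and 30.4%, 29.8% and 27.8% in WT (log2 change 0.71, SE 0.11, edgeR adjusted p = 0.0010). *RPL33A* made up 52.9%, 52.9% and 54.2% in *dbp2Δ* and 40.8%, 43.9% and 42.2% in WT (log2 change 0.64, SE 0.08, edgeR adjusted p = 0.00027). Here too the leading copy was A in *dbp2Δ* and B in WT. *RPL15A* dominated its pair in both strains, with 96.0%, 96.9% and 96.1% in *dbp2Δ* and 93.7%, 93.5% and 94.9% in WT (log2 change 0.74, SE 0.14, edgeR adjusted p = 0.0031).

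*RPL41*, *RPL8*, *RPL22*, *RPL1* and *RPP1* shifted towards the B copy. *RPL41A* made up 54.9%, 52.5% and 52.9% in *dbp2Δ*, against 68.5%, 72.4% and 63.8% in WT (log2 change -0.90, SE 0.20, edgeR adjusted p = 0.0045), and this pair differs by 1 coding base. *RPL8A* made up 49.8%, 45.1% and 44.9% in *dbp2Δ* and 59.7%, 57.2% and 67.9% in WT (log2 change -0.89, SE 0.17, edgeR adjusted p = 0.0031). *RPL8B* was thus the leading copy in every *dbp2Δ* library and in no WT library. *RPL22A* made up 74.9%, 73.6% and 75.6% in *dbp2Δ* and 82.4%, 84.2% and 81.1% in WT (log2 change -0.68, SE 0.09, edgeR adjusted p = 0.00053). *RPL1A* made up 28.9%, 30.4% and 30.0% in *dbp2Δ* and 39.9%, 44.2% and 34.1% in WT (log2 change -0.61, SE 0.15, edgeR adjusted p = 0.0078), with the caution above on its near-identical copies. *RPP1A* made up 63.2%, 65.8% and 65.9% in *dbp2Δ* and 73.8%, 73.4% and 73.7% in WT (log2 change -0.59, SE 0.07, edgeR adjusted p = 0.00034).

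**Figure D4:**
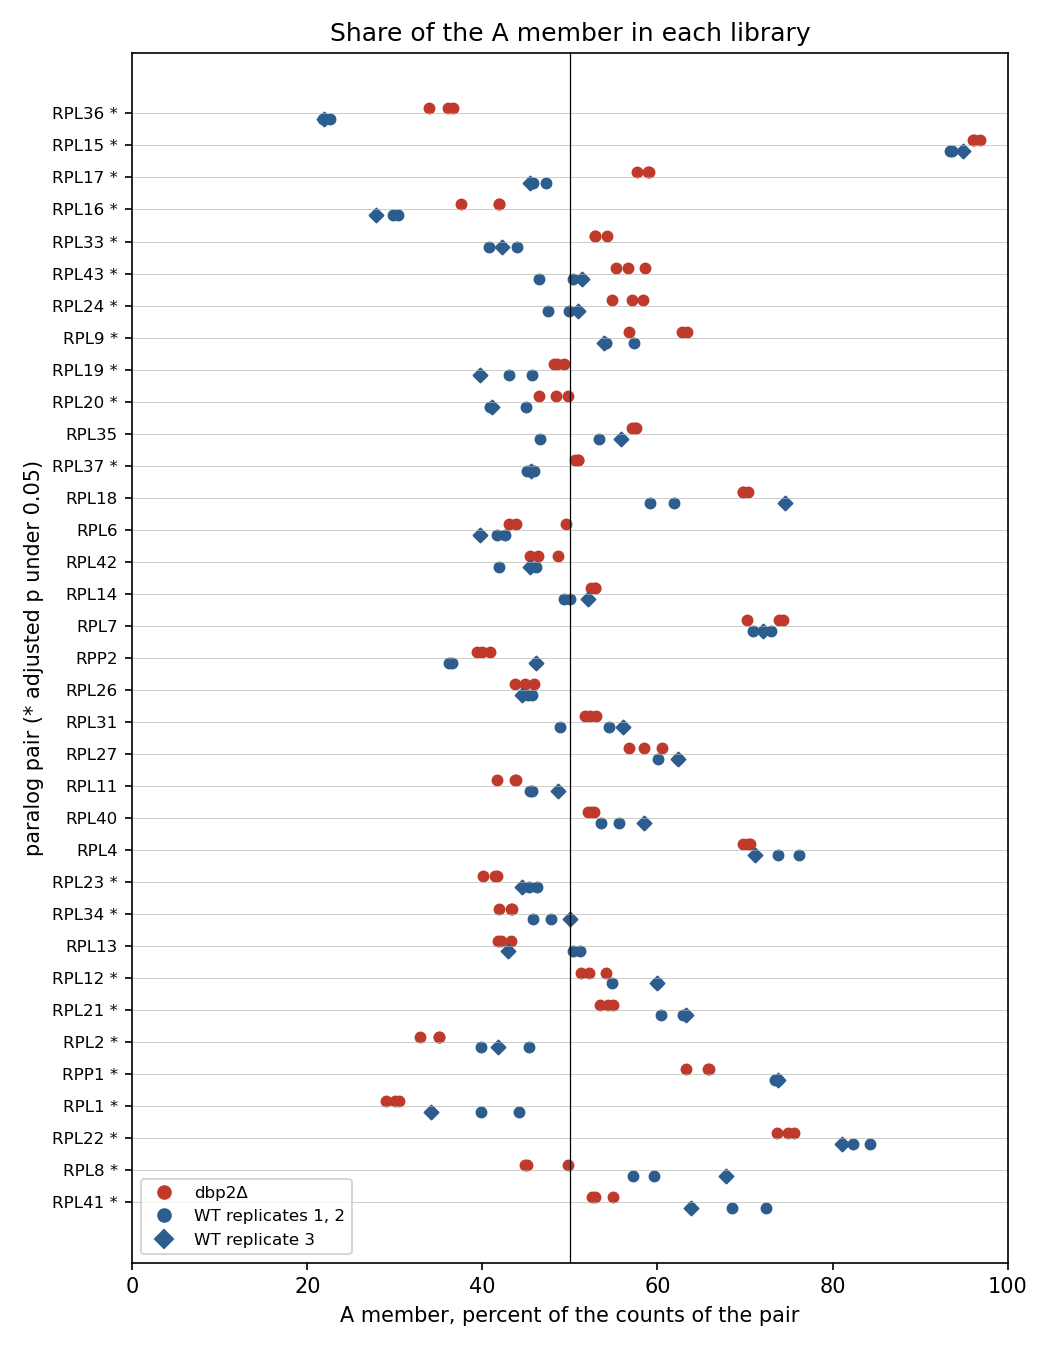
Share of the A copy in the counts of its pair (x axis, percent) in each *dbp2Δ* library (red) and each WT library (blue, WT replicate 3 as diamonds) for the 35 pairs, sorted by the change in ratio; stars mark the 21 pairs with adjusted p under 0.05. *RPL36* is at the top and *RPL41* at the bottom, and in 26 pairs the red and blue points do not overlap.

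The other 11 called pairs had absolute log2 changes between 0.25 and 0.49, and the order of the copies changed between strain means in 6 of the 21 called pairs (*RPL8*, *RPL17*, *RPL24*, *RPL33*, *RPL37* and *RPL43*). In 15 of the 21, the copy that was less abundant in WT gained. That copy was picked from the same WT counts that enter the ratio, which by itself favours a gain. Paralog pairs outside the ribosome were not compared in this way, so nothing is concluded from this count. Of the 14 pairs that were not called, the smallest change was that of *RPL26* (-0.02, SE 0.07), in which *RPL26A* and *RPL26B* had both been called higher. By identity, 4 of the 11 pairs with at least 95% coding identity and 17 of the 24 less alike were called. The difference between these shares was not tested. By intron, 13 of 24 pairs with introns in both copies and 7 of 10 with none were called.

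The counts of both copies were also summed. The log2 ratio of these sums, mean of *dbp2Δ* over mean of WT, ran from -0.24 (*RPL41*) to 0.88 (*RPL26*), with a median of 0.51. On the libraries without WT replicate 3 they ran from 0.02 (*RPL41*) to 1.33 (*RPL22*), with a median of 0.88. Of the sums, 34 of 35 were higher in every *dbp2Δ* library than in WT replicates 1 and 2. Of single genes, 34.7% were, and sums of other paralog pairs were not compared. *RPL1*, whose copies shifted against each other, summed to 10022, 10351 and 10256 normalized counts in *dbp2Δ*, against 6832, 6851 and 13015 in WT, with WT replicate 3 above all other libraries.

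Rap1 binds upstream of many of these genes. Its core motif, searched as CACCC followed by any 2 bases and then ACA on both strands in the 500 bases before the start codon, was found in 18 of 81 members (22.2%), in 11 of 56 *RPS* genes (19.6%) and in 2.22% of 5893 nuclear protein-coding genes. This strict form leaves out known variants of the motif, so no match says only that these letters are not in the window. Matches in 4 pairs from the results are shown with the match in capitals (R64 build, RefSeq, read along the strand of the gene). In *RPL36* both copies had a match, in *RPL33* the A copy, in *RPL8* the A copy and in *RPL22* the B copy.
*RPL36A*, chrXIII:650972-651001, plus strand: gactgttttaCACCCGTACAtttcacagtt
*RPL36B*, chrXVI:76535-76564, minus strand: actgtattttCACCCGTACAtccacggatg
*RPL33A*, chrXVI:281757-281786, plus strand: tacctctttaCACCCTTACActtcctttga
*RPL8A*, chrVIII:36246-36275, minus strand: atgaagaaaaCACCCAAACAtatctaggcc
*RPL22B*, chrVI:65159-65188, minus strand: tccatgtcaaCACCCGTACAtattcagaga
A match in only 1 copy was found in 11 pairs, of which 5 had a changed ratio, against 21 of all 35 pairs. The copy with the match gained in *RPL22*, *RPL33* and *RPL41* and lost in *RPL8* and *RPL20*. The median log2 fold change was 0.55 over the 18 members with a match and 0.49 over the 63 without.

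Antisense transcripts were listed opposite 4 members, *RPL16A*, *RPL19B*, *RPL34A* and *RPL42A*, in 6 entries, some of which overlap each other. They touch the genes only at an end, by 1 to 85 bases. The entry at the start of *RPL16A* (chromosome IX, 99332 to 99740) shares 85 of its 409 bases with the gene. It had 774, 769 and 646 normalized counts in *dbp2Δ*, against 279, 288 and 524 in WT. The strains did not overlap, and it rose with *RPL16A* itself (log2 fold change 1.00, SE 0.25, edgeR adjusted p = 0.015). It was the 1 entry of 6 that was called, against 23.4% of 2167 antisense transcripts called higher. The entry at the start of *RPL42A* had 1229, 1219 and 866 in *dbp2Δ* and 557, 510 and 1017 in WT (log2 fold change 0.67, SE 0.28, edgeR adjusted p = 0.086). The entries at the ends of *RPL34A* and *RPL19B* had log2 fold changes of 0.13 to 0.52 and were not called. All 6 were called higher when WT replicate 3 was left out (background 29.4%), and 0 when *dbp2Δ* replicate 1, *dbp2Δ* replicate 2 or WT replicate 2 was. Whether the counting used strand is not known here, so reads of a gene and of the transcript opposite it cannot be taken as separate.

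Other genes of the pathway were described by lists. Of 74 assembly factors of the large subunit, 19 were called higher and 1 lower (edgeR, background 20.0% and 21.9%), with a median log2 fold change of 0.28. These were 21 (28.4%, background 25.7%) and 6 (background 26.0%), with a median of 0.15, when WT replicate 3 was left out. *REA1*, a very large AAA ATPase that strips factors from the maturing particle, had 31699, 39314 and 38725 normalized counts in *dbp2Δ*, against 18661, 16977 and 15035 in WT (log2 fold change 1.11, SE 0.18, edgeR adjusted p = 0.0035). *IPI1* and *RIX1*, members of the complex that recruits it, rose by 0.90 and 0.72 (edgeR adjusted p = 0.0065 and 0.0085). *RRS1*, needed for early assembly with the 5S particle, fell by 0.42 on the log2 scale (edgeR adjusted p = 0.017). In these 4 genes WT replicate 3 lay with the other WT libraries or on the far side from *dbp2Δ*.

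Dedicated chaperones escort single large subunit proteins to the nucleus. *SYO1*, which carries Rpl5 and Rpl11, had 4108, 4686 and 4136 normalized counts in *dbp2Δ*, against 3271, 2672 and 2484 in WT, and was called higher (log2 fold change 0.62, SE 0.15, edgeR adjusted p = 0.013). *ACL4* for Rpl4, *SQT1* for Rpl10, *RRB1* for Rpl3 and *BCP1* for Rpl23 had log2 fold changes of -0.13, -0.10, -0.09 and 0.14 and did not pass, with or without WT replicate 3.

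Of 13 regulators of ribosomal protein genes, 4 were called higher (30.8%, background 20.0%) and 0 lower (background 21.9%) in edgeR, as in DESeq2. At an unadjusted p under 0.05, 5 were higher and *CRF1* alone was lower, against 1483 and 1586 of the 5936 genes tested. Limma-voom with sample quality weights called 4 higher and 1 lower (background 27.3% each way). *IFH1*, the coactivator that binds through Fhl1, had 6164, 5585 and 5956 normalized counts in *dbp2Δ*, against 3587, 3368 and 2486 in WT (log2 fold change 0.91, SE 0.16, edgeR adjusted p = 0.0052). *SFP1*, an activator under control of nutrients, had 2856, 2522 and 2622 in *dbp2Δ* and 1623, 1598 and 1463 in WT (log2 fold change 0.77, SE 0.11, edgeR adjusted p = 0.0026). For both, WT replicate 3 was the lowest library, unlike at the ribosomal protein genes themselves. *TOD6*, a repressor of ribosome biogenesis genes, and *TOR2*, a kinase of the TOR pathway, rose by 0.72 and 0.46 (edgeR adjusted p = 0.016 and 0.023). *RAP1*, *FHL1* and *HMO1*, which bind at the promoters, had log2 fold changes of -0.22, 0.25 and -0.17, and the corepressor *CRF1* of -0.65 (edgeR adjusted p = 0.066). *ABF1*, *STB3*, *DOT6*, *SCH9* and *TOR1* lay between -0.15 and 0.35 and did not pass. When WT replicate 3 was left out, 5 were called higher (background 25.7%), *DOT6* (0.53) being added, and *RAP1* was called lower (background 26.0%), at a log2 fold change of -0.32 (edgeR adjusted p = 0.031).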

How the data were processed

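TT-seq libraries of 3 *dbp2Δ* and 3 WT cultures, described as biological replicates, were analysed. The tables the authors deposited hold raw counts for each library, of genes and of non-coding transcripts that lie opposite a gene. In the submitters' processing notes, featureCounts, edgeR and the R64 build are named, without versions. The aligner, the strand setting and the treatment of reads with several hits were not given in the sources used here. The library kit marks strand. All sample columns were mapped. Libraries summed to between 6968216 and 13134963 gene counts. The tests cover the spread between these cultures only.

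The main test was edgeR 4.0.16 in R 4.3.3 (filterByExpr, TMM, glmQLFit, glmQLFTest, strain alone in the design), with Benjamini-Hochberg adjustment over all genes tested. Normalized counts are TMM-normalized at the mean effective library size. The SE was taken as the absolute log2 fold change over the square root of F. TMM factors lay between 0.935 and 1.04. The biological coefficient of variation over all genes tested was 20.1% for all libraries, 9.66% in *dbp2Δ* and 26.6% in WT. In WT without replicate 3 it was 19.8%, still above that in *dbp2Δ*. Pair ratios were tested as the interaction of copy and strain with a term for each library, for pairs with at least 50 counts. The plan was to adjust p over paralog pairs of the proteome. If no protein sequences were given, it named the *RPL*, *RPP* and *RPS* pairs. No table of protein sequences was given, so the main test used the latter. Antisense transcripts took their effective library sizes from the gene table. No pair of replicates agreed within counting noise.

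The members follow a rule that used names only. The lists were written with earlier results of these data known. Named members are the 10 largest and 5 lowest log2 fold changes, both copies of the 10 pairs with the largest change in ratio, the stalk genes, the 5 highest and 5 lowest per kb of coding length, the 3 single-copy genes with the largest change and those with an antisense transcript. *RPL19A*, *RPL21B* and *RPL26A* are outside these groups and are given because they were called. Of the other lists, the 3 called genes with the largest change in each direction, each chaperone and each regulator are named. Alternatives were DESeq2 1.42.0, limma-voom (limma 3.58.1) with sample quality weights, library size only, upper quartile and RLE scaling, TMM without ribosomal protein genes, low counts kept in, a block for the replicate number, leaving out each library, other denominators of the share, limma on log2 ratios (pseudocounts 0.5 and 5), and pairs under 95% coding identity. Added after seeing the data were paralog pairs of the whole proteome (BLASTP 2.17.0 on translated R64 genes, at least 50% identity over 80% of the longer protein), 1 quality weight per strain and the heat shock list. The procedures were tested on simulated counts. Python 3.11.15, numpy 2.4.6, pandas 2.3.3 and Biopython 1.88 were used for the remaining steps.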

Additional observations from a re-analysis of the deposited data

How the results depend on the processing

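The count of members called higher moved with the tool, with quality weights and with the libraries included. With all libraries it was 14, also with upper quartile or RLE scaling, TMM without ribosomal protein genes and no filter, 24 with DESeq2, 23 with library size only, 69 with limma-voom and sample quality weights (which gave WT replicate 3 a weight of 0.25) and 35 with 1 weight per strain, chosen after seeing the data. Leaving out 1 library gave 3 to 76 members higher and 0 to 1 lower, which was *RPL41A* without WT replicate 1. The median log2 fold change stayed positive, from 0.29 to 0.86, and the difference in share of gene counts from 1.23 to 2.35 percentage points (1.61 with all). Over all genes and in either direction, 2488 were called, and 2456 to 2500 in the alternative settings that kept 14 members. DESeq2 called 2587, library size only 2378, sample quality weights 3240 and 1 weight per strain 2507. Leaving out a library gave 1427 to 3084. The pairs with a changed ratio (21) numbered 16 to 26 with a library left out, 21 in limma on log2 ratios with either pseudocount, 18 when the pairs under 95% identity were fitted and adjusted on their own (17 of these 24 in the fit of all pairs) and 15 adjusted over the proteome. The antisense entries called (1) numbered 0 to 6.

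Same-numbered libraries showed no shared deviation from their strain means (r of -0.08, -0.12 and 0.003, against 0.17 for *dbp2Δ* replicate 1 with WT replicate 2). With 3 libraries per strain this check is weak and cannot settle whether the numbers pair the samples. The main test took them as unpaired. With the replicate number as a block, 2001 genes, 17 members higher, 0 lower (median 0.58) and 19 pairs were called.

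Where a sign differed from that with all libraries, the value was called neither with all libraries nor in the fit with the other sign. With a library left out, the log2 fold change ran from -0.021 to 0.21 for *RPL15B*, -0.036 to 0.49 for *RPL17B*, -0.30 to 0.079 for *RPL1A*, -0.42 to 0.26 for *RPL2A* (0.16 with sample quality weights), -0.23 to 0.66 for *RPL30*, -0.038 to 0.58 for *RPL33B* and -0.17 to 0.51 for *RPL9B*, with the highest of each without WT replicate 3, where *RPL17B*, *RPL30*, *RPL33B* and *RPL9B* were called higher. The change in log2 ratio ran from -0.048 to 0.015 for *RPL26*, -0.17 to 0.038 for *RPL31* and -0.077 to 0.23 for *RPP2*.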
